A study of Mus musculus with 18 samples.

Results

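The RNA levels of 10 genes of FGF-ERK signalling were followed in mouse embryonic stem cells (ESCs) and in the epiblast-like cells (EpiLCs) made from them, with or without exposure to Δ9-tetrahydrocannabinol (Δ9-THC), the main psychoactive compound of cannabis. The genes were chosen by name for their roles: a ligand (Fgf4), 2 receptors (Fgfr1 and Fgfr2) and 7 genes that ERK activity is known to induce or that restrain the pathway (Dusp4, Dusp6, Spry2, Spry4, Spred1, Etv4 and Etv5). All 10 were found among the 13104 genes measured in ESCs, the 13717 measured in EpiLCs and the 12410 measured in both. The data comprise 12 bulk RNA-seq libraries, labelled as 3 biological replicates in each of 4 groups, and the comparison of exposures asks whether Δ9-THC changes the transcriptome of either cell type.

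Both cell types carry the Blimp1::mVenus and Stella::ECFP reporters (BVSC cells). The main experiments are described as done in female cells, and the methods also name a male clone. ESCs were grown on poly-ornithine and laminin in N2B27 medium with LIF, an inhibitor of GSK3 and an inhibitor of MEK, the kinase that activates ERK. EpiLCs were grown on fibronectin in N2B27 with activin A, basic FGF and serum replacement, with no MEK inhibitor named. In each cell type, cells of the vehicle group received the ethanol solvent and cells of the exposed group received Δ9-THC at 100 nM, and exposed EpiLCs came from ESCs that had been exposed as well.

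FGFs are secreted proteins that bind receptor tyrosine kinases at the cell surface and, through Ras, Raf and MEK, activate the kinase ERK. Active ERK induces a set of its own inhibitors, among them dual-specificity phosphatases, Sprouty proteins and Spred proteins, and ETS transcription factors such as Etv4 and Etv5, so the RNA of these genes is widely used as a readout of the pathway. In the early mouse embryo and in ESCs, FGF-ERK signalling moves cells out of naive pluripotency, and MEK inhibition keeps them in it.

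The total of adjusted counts per library ranged from 23427551 to 32096698. Levels below are CPM (counts scaled to a common library total), scaled between the 12 libraries by TMM on the 12410 shared genes. Summed marker levels and the level of Fgf5 were instead scaled by TMM within each cell type alone. The markers matched the labels: all 10 naive markers were lower in every EpiLC library, with a summed level of 4591 to 5030 CPM in ESCs and 337 to 402 CPM in EpiLCs, and the 7 EpiLC markers measured in both were higher. Of 8 primitive endoderm markers, Gata6, Sox17, Sox7, Pdgfra and Foxa2 were in neither table. Gata4 and Lama1 summed to 53.2 to 76.0 CPM in ESCs, and with Dab2, measured in EpiLCs alone, to 10.4 to 13.6 CPM in EpiLCs. Of 6 trophectoderm markers, Cdx2, Elf5, Gata3 and Hand1 were in neither table, while Krt7 and Tead4 summed to 54.9 to 56.8 CPM in ESCs, nearly all from Tead4, and to 9.11 to 11.9 CPM in EpiLCs. In both cell types, the deviations of same-numbered vehicle and Δ9-THC libraries from their group means mirrored each other (r of -0.987 to -0.977 over genes in ESCs, -0.985 to -0.979 in EpiLCs), so the 6 libraries of a cell type do not vary independently, whereas the tests below take them as independent. In bulk RNA, fewer cells of a type and less RNA per cell cannot be told apart.

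Between the cell types, all 10 genes separated without overlap. The libraries of EpiLCs were all above those of ESCs for Fgfr1, Fgfr2, Dusp4, Dusp6, Spry4, Spred1 and Etv4, and all below them for Fgf4, Spry2 and Etv5. Of all 12410 genes, 29.6% were higher in EpiLCs without overlap and 31% were lower. The ratios of the higher genes reached further than those of the lower ones: 5 of the 10 were more than 2-fold higher (11% of all genes) and 3, Dusp6, Dusp4 and Spry4, more than 4-fold higher (3.09% of all genes), while none was more than 2-fold lower (9.76% of all genes). The median log2 ratio of EpiLCs to ESCs was 1.14 over the 10 genes and 0.0037 over all genes. The 2 tables were adjusted for batch separately, so these are levels, given without a test.

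**Figure D1:**
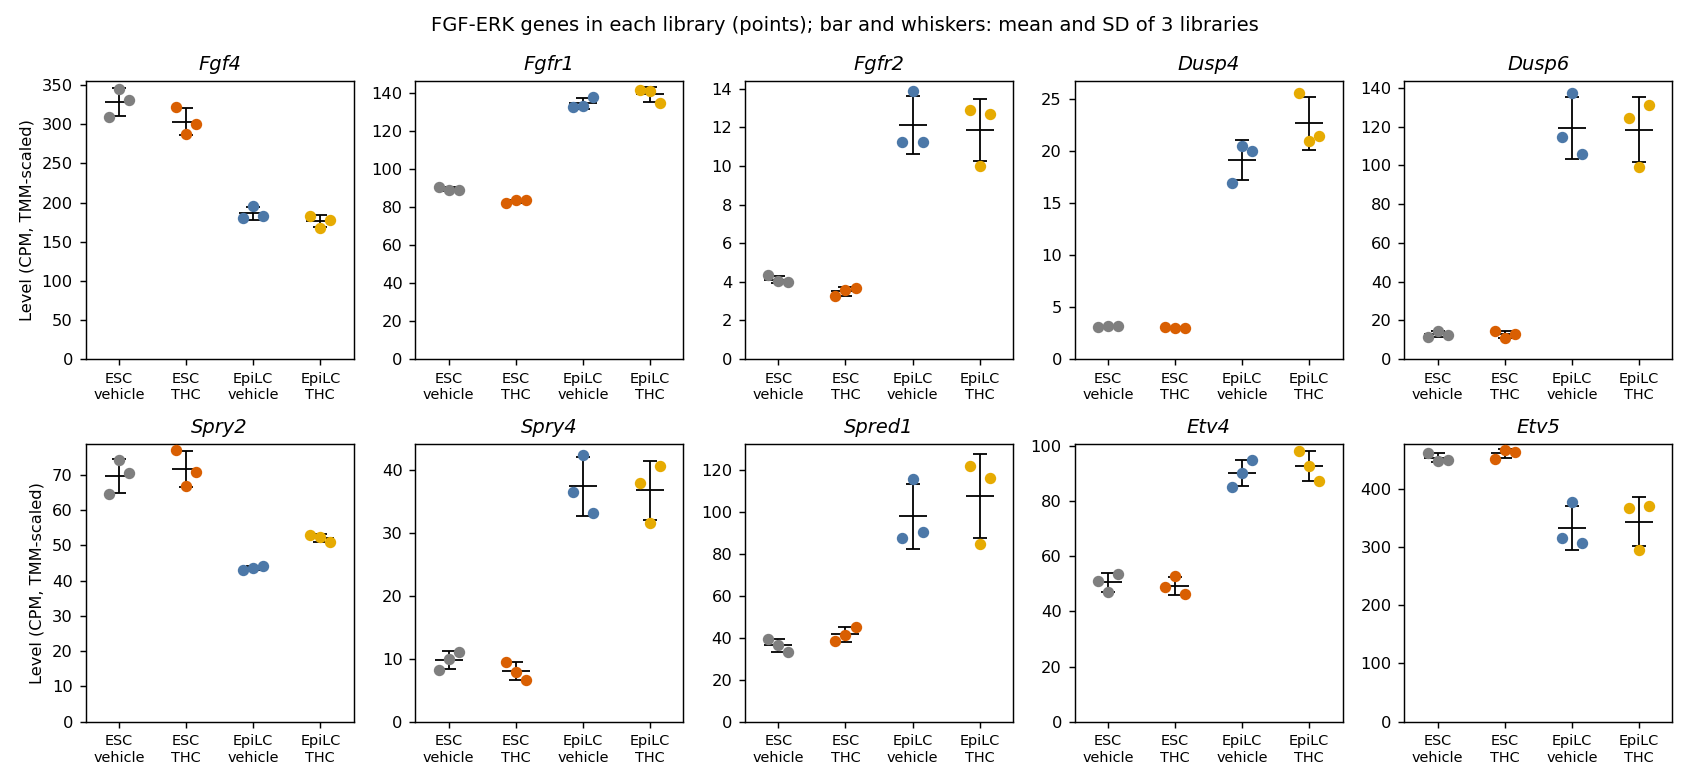
Level of each of the 10 genes (y axis, CPM scaled by TMM, starting at 0) in the 4 groups of 3 libraries (x axis); points are libraries, the bar and whiskers the mean and SD. ESC and EpiLC libraries do not overlap for any gene, and within a cell type the exposures overlap for most, the exceptions being Fgfr1, Fgfr2 and Dusp4 in ESCs and Dusp4 and Spry2 in EpiLCs.

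For Dusp6, Spred1 and Spry2, which all restrain the pathway, the DNA just before the start sites is shown as an example of genes that were higher and lower in EpiLCs. The sequences are the 250 bases upstream of the RefSeq start in GRCm38.p6, read 5′ to 3′ on the strand of the gene. Capitals mark GGAAG or its complement CTTCC, which extends GGAA, the core of sites bound by ETS factors. The shorter GGAA was not searched for, and the Spry2 window, which has no capitals, does hold it. Dusp6 (chr10:99262981-99263230, plus strand) and Spred1 (chr2:117120821-117121070, plus strand) were higher in EpiLCs, and Spry2 (chr14:105896820-105897069, minus strand) was lower.
Dusp6: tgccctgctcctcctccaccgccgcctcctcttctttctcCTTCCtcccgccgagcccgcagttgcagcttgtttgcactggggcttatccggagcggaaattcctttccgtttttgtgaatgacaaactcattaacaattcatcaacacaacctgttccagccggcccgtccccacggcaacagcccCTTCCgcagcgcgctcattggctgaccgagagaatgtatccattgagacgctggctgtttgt
Spred1: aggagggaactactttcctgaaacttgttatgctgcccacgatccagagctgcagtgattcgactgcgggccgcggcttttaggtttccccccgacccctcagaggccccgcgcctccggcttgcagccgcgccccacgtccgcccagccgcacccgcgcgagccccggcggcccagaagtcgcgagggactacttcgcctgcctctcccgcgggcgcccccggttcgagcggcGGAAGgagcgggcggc
Spry2: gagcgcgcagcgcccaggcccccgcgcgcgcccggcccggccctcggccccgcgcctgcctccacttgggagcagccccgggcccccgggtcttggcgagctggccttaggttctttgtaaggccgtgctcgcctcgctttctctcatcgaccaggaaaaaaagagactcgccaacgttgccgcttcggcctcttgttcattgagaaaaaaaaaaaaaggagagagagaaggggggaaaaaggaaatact
The window of Dusp6 held 2 matches on either strand, that of Spred1 held 1 and that of Spry2 held 0, in a search in which 64.1% of 32817 promoter windows held at least 1. The matches did not sort the genes by direction: Etv5, lower in EpiLCs, had 2 in one of its windows and 0 in the other, Fgf4, also lower, had 0, and Fgfr2, higher, had 1. The longer ETS motif CCGGAAG (6.9% of windows, containing GGAAG), the AP-1 motif TGAGTCA (4.46%) and the CArG box of serum response factor (1.47%) were in none of these 3 windows. The table of promoters held 6 of the 10 genes. Fgfr1, Dusp4, Spry4 and Etv4 had no entry.

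Fgf4 is the FGF that ESCs themselves secrete and the ligand that starts their exit from naive pluripotency. Its gene (ENSMUSG00000050917) lies on chromosome 7 at 144847367-144865243 in GRCm38. In ESCs its level was 309.9, 345.0 and 331 CPM with vehicle and 322, 288 and 301 CPM with Δ9-THC. In EpiLCs it was 181, 196 and 183 CPM with vehicle and 183, 168 and 178 CPM with Δ9-THC. Every EpiLC library was below every ESC library, and the exposures overlapped in both cell types. The mean level was 1.74-fold higher in ESCs than in EpiLCs, a log2 ratio of -0.80 for EpiLCs over ESCs. Among 18 FGF ligands listed, only Fgf3 and Fgf17 were also measured in both cell types: Fgf3 had a mean of 7.64 CPM in ESCs and 1.93 CPM in EpiLCs without overlap, and the libraries overlapped for Fgf17. Of the 18, 5 were measured in EpiLCs alone and 1 in ESCs alone. Fgf5, a marker of the primed epiblast, was among those 5, at 12.7 to 18.2 CPM.

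Fgfr1 encodes the receptor through which FGF4 mainly signals in these cells. The gene (ENSMUSG00000031565, chromosome 8, 25513654-25575718) shares 1.66% of its exon length with the antisense gene Gm16159, and the reads were counted without strand. Its level in ESCs was 90.3, 88.7 and 88.6 CPM with vehicle and 81.8, 83.4 and 83.3 CPM with Δ9-THC. EpiLC libraries stood at 132, 133 and 138 CPM with vehicle and 142, 141 and 134 CPM with Δ9-THC. EpiLCs were above ESCs throughout, 1.59-fold on average, and in ESCs every exposed library was below every vehicle library. The log2 ratio of EpiLCs to ESCs was 0.59 in the vehicle libraries and 0.75 in the exposed ones.

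Fgfr2, a second FGF receptor known for its role in the primitive endoderm and trophoblast, was the lowest of the 10 genes per kilobase in both cell types. The gene (ENSMUSG00000030849, chromosome 7, 130162451-133123350) shares 3.04% of its exon length with Ctbp2. In ESCs the level was 4.35, 4.03 and 3.97 CPM with vehicle and 3.25, 3.60 and 3.69 CPM with Δ9-THC, from 78 to 142 counts a library. In EpiLCs it was 11.2, 13.9 and 11.3 CPM with vehicle and 12.9, 10 and 12.7 CPM with Δ9-THC. EpiLC libraries were 3.14-fold higher on average, the exposed ESC libraries lay below the vehicle ones, and in EpiLCs the exposures overlapped. Of the 6 FGF receptors and co-receptors measured in both cell types, Fgfr1 and Fgfr2 were the ones that separated without overlap, both higher in EpiLCs. Of all genes, 29.6% were higher and 31% lower.

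Dusp6 encodes the cytoplasmic phosphatase that removes the activating phosphates from ERK, and it changed most between the cell types. Its gene (ENSMUSG00000019960) lies on chromosome 10 at 99263231-99267489. In ESCs its level was 11.4, 14.7 and 12.6 CPM with vehicle and 14.4, 10.8 and 12.9 CPM with Δ9-THC. The EpiLC libraries gave 115, 137 and 106 CPM with vehicle and 125, 99.3 and 131 CPM with Δ9-THC. The lowest EpiLC library was far above the highest ESC library and the exposures overlapped in both cell types, with group means of 119 ± 16.1 CPM for vehicle and 118 ± 16.9 CPM for Δ9-THC in EpiLCs (SD, n = 3). The mean was 9.28-fold higher in EpiLCs, and this log2 ratio was 3.21 in the vehicle libraries and 3.22 in the exposed ones.

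Dusp4, a nuclear phosphatase of ERK and related kinases, followed with a 6.81-fold higher mean in EpiLCs. The gene (ENSMUSG00000031530) lies on chromosome 8 at 34807297-34819894. Its ESC level was 3.10, 3.15 and 3.16 CPM with vehicle and 3.04, 3.00 and 2.99 CPM with Δ9-THC, from 72 to 101 counts a library. Its EpiLC level was 16.9, 20.5 and 20.0 CPM with vehicle and 25.6, 20.96 and 21.5 CPM with Δ9-THC. The exposures separated in both cell types, with the exposed libraries lower in ESCs by a small margin and higher in EpiLCs. Of the 8 MAP kinase phosphatases measured in both cell types, Dusp4 and Dusp6 included, 5 were higher in EpiLCs without overlap and 1 was lower. Of all genes, 29.6% were higher and 31% lower. Dusp5, a nuclear phosphatase specific for ERK, went from 8.74 to 22.4 CPM.

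Spry2 and Spry4 encode Sprouty proteins, which act between the receptor and Ras or Raf, and the 2 genes went in opposite directions. Spry2 (ENSMUSG00000022114, chromosome 14, 105891947-105896819) stood at 64.6, 74.1 and 70.3 CPM with vehicle and 77.0, 66.8 and 70.8 CPM with Δ9-THC in ESCs. In EpiLCs it stood at 42.9, 43.4 and 44.1 CPM with vehicle and 52.8, 52.4 and 50.8 CPM with Δ9-THC. All EpiLC libraries were below all ESC libraries, and within EpiLCs all exposed libraries were above all vehicle libraries. The mean was 1.48-fold higher in ESCs. The log2 ratio of EpiLCs to ESCs was -0.68 in the vehicle libraries and -0.46 in the exposed ones.

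The Spry4 gene (ENSMUSG00000024427) was measured in ESCs at 8.22, 9.93 and 11.1 CPM with vehicle and at 9.55, 7.86 and 6.64 CPM with Δ9-THC. In EpiLCs it was at 36.5, 42.3 and 33.2 CPM with vehicle and at 37.9, 31.6 and 40.6 CPM with Δ9-THC. The cell types were far apart, with a 4.17-fold higher mean in EpiLCs, and the exposures overlapped in each. Spred1 (ENSMUSG00000027351, chromosome 2, 117121374-117182279) encodes a protein that recruits the Ras inhibitor neurofibromin to the membrane. In ESCs its level was 39.4, 36.8 and 33.2 CPM with vehicle and 38.3, 41.2 and 45.1 CPM with Δ9-THC. EpiLC levels were 87.4, 116 and 90.3 CPM with vehicle and 122, 84.7 and 116 CPM with Δ9-THC. EpiLCs were 2.63-fold higher on average and the exposures overlapped in both cell types. Of the 7 Sprouty and Spred genes and Sef measured in both, 4 were higher in EpiLCs without overlap, Spry4 and Spred1 included, and Spry2 alone was lower. Of all genes, 29.6% were higher and 31% lower. The largest ratio was that of Spred3, from 3.06 to 17.1 CPM.

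Etv4 and Etv5 encode closely related ETS transcription factors that ERK signalling induces. Etv4 (ENSMUSG00000017724, chromosome 11, 101769742-101785371) was at 50.9, 47.0 and 53.6 CPM with vehicle and at 49.0, 52.8 and 46.3 CPM with Δ9-THC in ESCs. In EpiLCs it was at 85.2, 90.3 and 94.9 CPM with vehicle and at 98.1, 92.8 and 87.1 CPM with Δ9-THC. It was 1.83-fold higher in EpiLCs on average, with the exposures overlapping in both cell types. Etv5 (ENSMUSG00000013089, chromosome 16, 22381309-22439719) went the other way. Its ESC level was 462, 447 and 449 CPM with vehicle and 452, 466 and 464 CPM with Δ9-THC. Its EpiLC level was 315, 376 and 306 CPM with vehicle and 366, 295 and 369.5 CPM with Δ9-THC. ESCs were 1.35-fold higher on average, and the EpiLC libraries spread more, with an SD of 38.2 CPM in vehicle EpiLCs against 7.76 CPM in vehicle ESCs.

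Per kilobase of exon, the order of the genes changed between the cell types mostly through Dusp6. In ESCs the order of mean levels was Etv5 (111 CPM per kb), Fgf4 (98.9), Spry2 (33.8), Etv4 (16.1), Fgfr1 (8.71), Spred1 (5.75), Dusp6 (4.09), Spry4 (1.87), Dusp4 (1.12) and Fgfr2 (0.370), and the ranges over libraries of neighbours in this order did not overlap. In EpiLCs Etv5 (82.4) and Fgf4 (56.8) again led, and Dusp6 (38.0) came next, ahead of Etv4 (29.4), Spry2 (22.9), Spred1 (15.1), Fgfr1 (13.8), Spry4 (7.79), Dusp4 (7.63) and Fgfr2 (1.16). There, the ranges of Spred1 and Fgfr1 and those of Spry4 and Dusp4 overlapped. Dusp6 thus moved up past Etv4, Spry2, Spred1 and Fgfr1, in libraries of both exposures.

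The other genes of the pathway were mixed. Of 93 listed, 66 were measured in both cell types, and 20 of these were higher in EpiLCs without overlap, 21 were lower and 25 overlapped, near the 29.6% and 31% of all genes, with a median log2 ratio of 0.062. The counts by role that follow rest on few genes and are to be read against the same shares. Among 22 genes that relay the signal from receptor to ERK, 6 were higher and 8 lower: Braf, a MEK-activating kinase, went from 52.5 to 113 CPM, while Ksr1, a scaffold of the cascade, went from 29.9 to 9.46 CPM. None of 9 Ras-GAPs and other brakes on Ras was higher and 5 were lower, including Rasa3 (18.8 to 8.48 CPM) and Dab2ip (103 to 50.1 CPM). Of 9 ETS factors, Etv4 and Etv5 included, 3 were higher and 5 lower. Ets1 went from 0.966 to 3.26 CPM and the ERK-inhibited repressor Erf from 108 to 40.4 CPM. Among 12 other ERK-responsive genes, 7 were higher and 2 lower. Myc, a growth regulator, went from 6.19 to 68.5 CPM, Ier3 from 4.65 to 22.8 CPM, and the ephrin receptor Epha4 from 47.6 to 3.09 CPM.

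**Figure D2:**
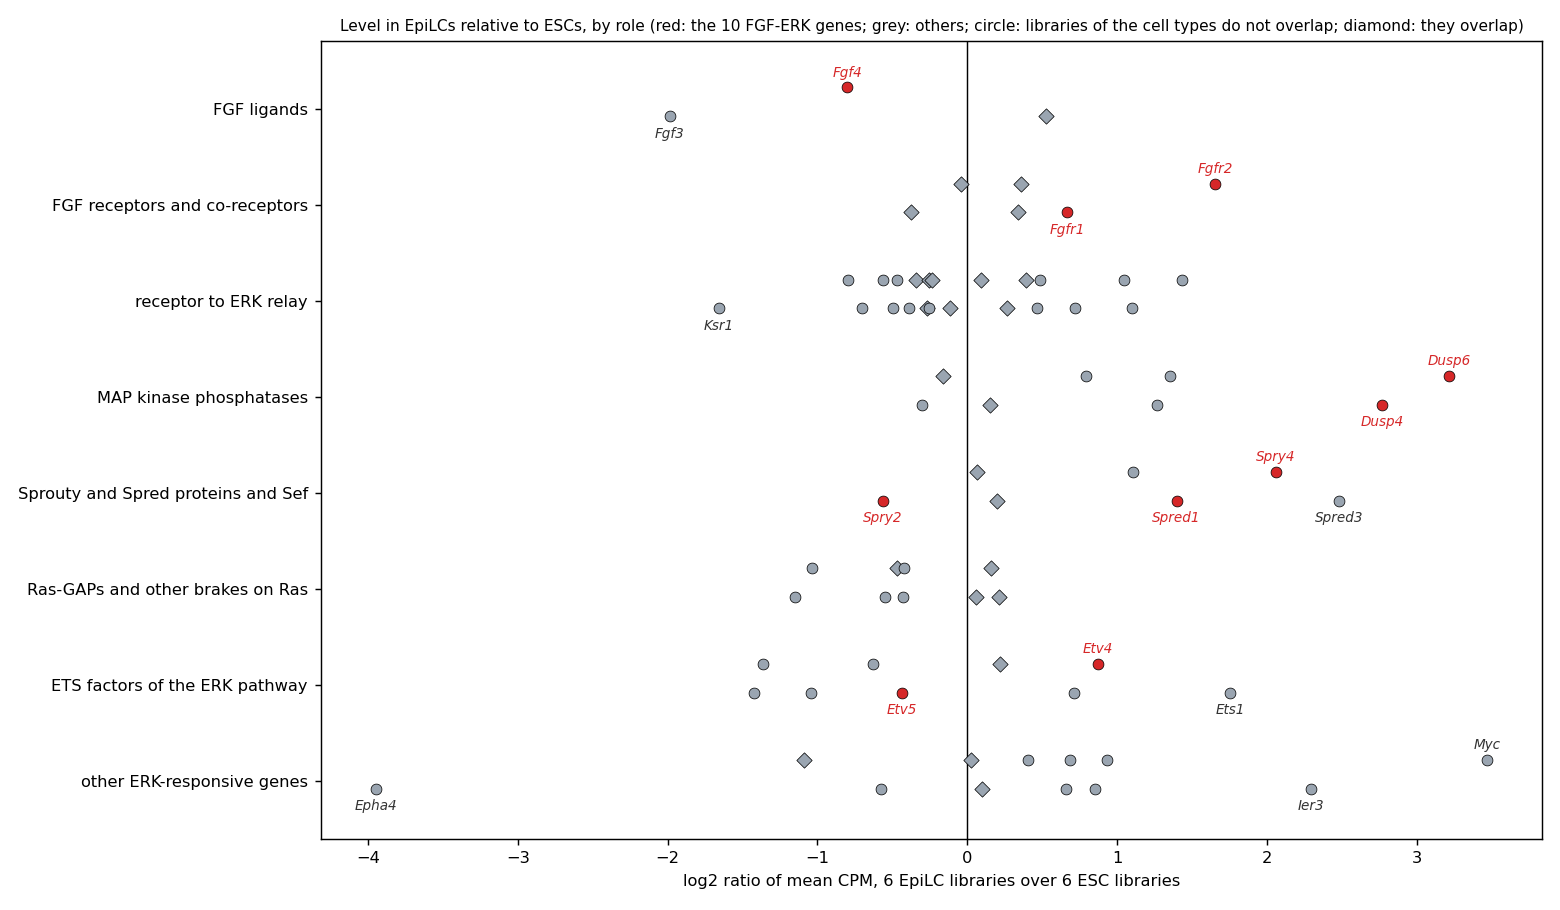
Log2 ratio of the mean level in 6 EpiLC libraries over that in 6 ESC libraries (x axis) for the genes measured in both cell types, by role (y axis); red points are the 10 genes, grey points other listed genes, circles have no overlap between the cell types and diamonds overlap. Dusp6 (3.21) and Dusp4 (2.77) lie farthest to the right among the red points, and Fgf4 (-0.80) farthest to the left.

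The comparison of exposures asked whether Δ9-THC moved these genes within a cell type. In ESCs, 0 of the 10 genes passed the edgeR quasi-likelihood test at a Benjamini-Hochberg adjusted p of 0.05, where 6.91% of all 13104 genes did. At an unadjusted p under 0.05, 2 of the 10 passed in ESCs (28.7% of all genes), and DESeq2 called 7.19% of 10563 genes and likewise 0 of the 10, Dusp4 having no adjusted p there. These tests take the libraries as independent. With the replicate number as a block, edgeR called 0.0382% of all genes and 0 of the 10. The 3 exposed libraries stood apart from the 3 vehicle ones for 3 genes, Fgfr1, Fgfr2 and Dusp4, all lower with Δ9-THC, against 15.9% of all genes lower without overlap and 16.7% higher. The median log2(fold-change) was -0.028 over the 10 genes and 0.0041 over all genes.

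Fgfr1 had the smallest p of the 10 genes in ESCs, with a log2(fold-change) of -0.091 (SE 0.026, edgeR adjusted p = 0.0826). The log2(fold-change) of all genes in ESCs followed GC content (Spearman rho across genes of -0.545), and Fgfr1 has a GC content of 54.9% against a median of 50.1%. With smooth trends in GC content and gene length removed, the fold change of Fgfr1 was -0.0019 (edgeR adjusted p = 0.974). Spred1, with a GC content of 41.5%, had a log2(fold-change) of 0.20 (SE 0.082, edgeR adjusted p = 0.162), and of 0.073 with those trends removed. Whether the trend itself belongs to the exposure was not tested.

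Fgfr2 had a log2(fold-change) of -0.21 (SE 0.095, edgeR adjusted p = 0.197) in ESCs. The 2 primitive endoderm markers measured there, Gata4 and Lama1 of a list of 8, also summed to less with Δ9-THC (53.2 to 62.0 CPM) than with vehicle (66.3 to 76.0 CPM), and their part in the Fgfr2 value was not tested. Dusp4 had one of -0.042 (SE 0.12, edgeR adjusted p = 0.858), which turned to 0.038 with the GC and length trends removed. For Fgfr1, Fgfr2 and Dusp4 the SD between the 3 ESC libraries of a group was below the error expected from counting alone: for Dusp4 with vehicle, 0.0330 CPM against a counting error of 0.336 CPM. The separation of its exposures in ESCs, 3.13 against 3.01 CPM, is smaller than that counting error. The Dusp6 estimate in ESCs was -0.0062, with a 95% interval of -0.32 to 0.31, and that of Spry4 was -0.26, with an interval of -0.64 to 0.12 and values from -0.40 without the first exposed library to -0.15 without the third. Of the remaining genes, Fgf4 was at -0.10 (interval -0.23 to 0.033, and -0.061 without the second vehicle library), Spry2 at 0.054 (-0.11 to 0.22), Etv4 at -0.015 (-0.17 to 0.14) and Etv5 at 0.040 (-0.024 to 0.11).

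In EpiLCs, 0 of the 10 genes passed, as did 0% of all 13717 genes with edgeR. At an unadjusted p under 0.05, 2069 genes passed, or 15.1%, and 1 of them, Spry2, was among the 10. DESeq2 called 87 of 11589 genes (0.751%) and 0 of the 10. The exposures did not overlap for 2 of the 10 genes, Dusp4 and Spry2, both higher with Δ9-THC, against 11.2% of all genes higher without overlap and 10.6% lower. The median log2(fold-change) was 0.043 over the 10 genes and 0.0030 over all genes.

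Spry2 had the smallest p of the 10 genes in EpiLCs. Its mean was 43.5 ± 0.594 CPM with vehicle and 52.0 ± 1.05 CPM with Δ9-THC (SD, n = 3). The log2(fold-change) was 0.26 (SE 0.053, 95% interval 0.13 to 0.38) and did not pass (edgeR adjusted p = 0.157, DESeq2 adjusted p = 0.157). This SE and interval take the 6 libraries as independent. With the replicate number as a block, the SE was 0.14 (edgeR adjusted p = 0.999). Here too the SD in each group was below the counting error, which was 1.27 CPM with vehicle and 1.38 CPM with Δ9-THC. The difference between the group means was larger than either. With the GC and length trends removed, the fold change was again 0.26. Dusp4 had a log2(fold-change) of 0.25 (SE 0.11, interval -0.026 to 0.52, edgeR adjusted p = 0.369), and of 0.34 with the trends removed. Without the first exposed library it was 0.14, and without the first vehicle library 0.16. In EpiLCs the 3 primitive endoderm markers measured summed to more with Δ9-THC (12.99 to 13.56 CPM) than with vehicle (10.4 to 10.8 CPM), and 9 of 10 naive markers had a log2(fold-change) above 0 (median 0.17, 3 higher without overlap, 0 called). Their part in the values of Spry2 and Dusp4 was not tested.

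With libraries taken as independent, the remaining estimates in EpiLCs, like that of Dusp4, had intervals that included 0. Spred1 was at 0.14 (95% interval -0.27 to 0.54), Fgf4 at -0.082 (-0.24 to 0.074), Fgfr1 at 0.050 (-0.080 to 0.18), Etv5 at 0.047 (-0.25 to 0.34) and Etv4 at 0.040 (-0.13 to 0.21). Fgfr2 was at -0.032 (-0.36 to 0.30), Spry4 at -0.025 (-0.33 to 0.28) and Dusp6 at -0.011 (-0.34 to 0.32). For these 8 genes the exposures overlapped. With the GC and length trends removed, Spred1 came to 0.022, Fgf4 to -0.045, Fgfr1 to 0.016, Etv4 to 0.13 and Fgfr2 to -0.11. Leaving out 1 library moved Spred1 between 0.028, without the first exposed library, and 0.28, without the second vehicle library. Spred1, Fgfr2, Spry4, Dusp6 and Etv5 had the widest intervals of these 8.

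**Figure D3:**
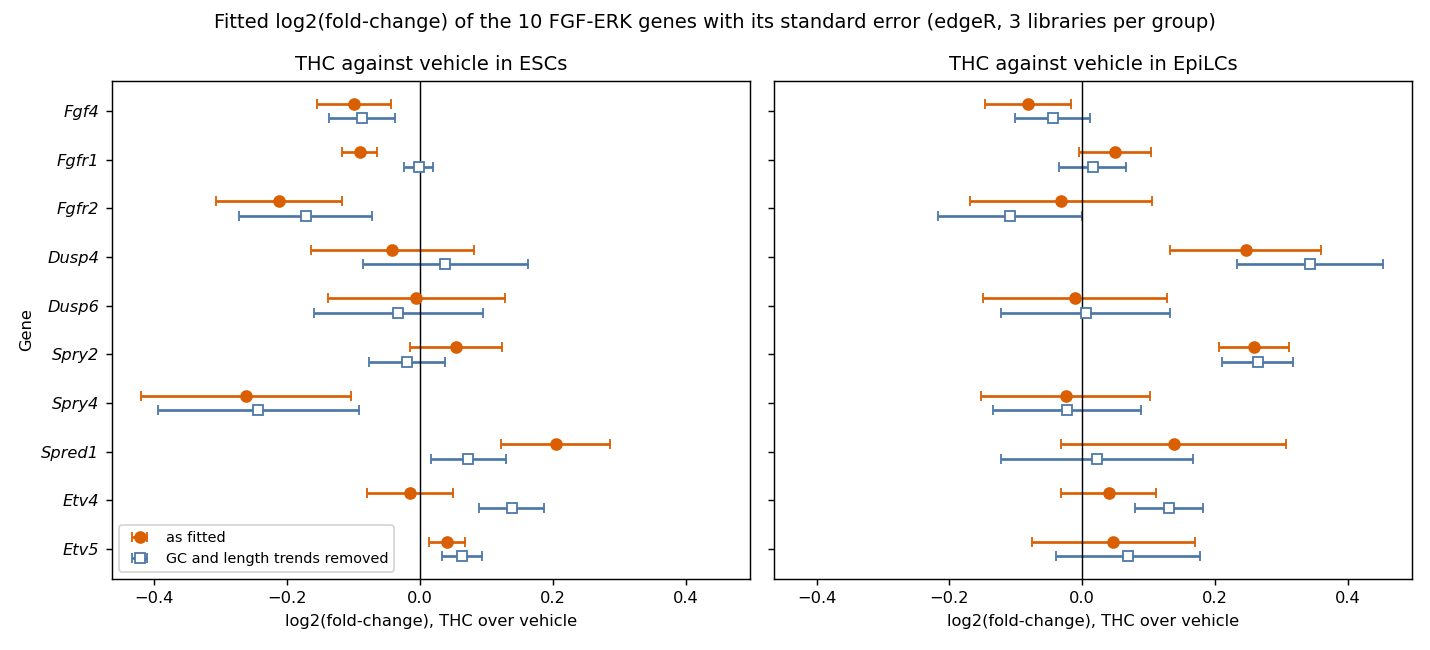
Fitted log2(fold-change) of Δ9-THC over vehicle (x axis) with its standard error for the 10 genes (y axis) in ESCs (left) and EpiLCs (right), as fitted (filled circles) and with GC and length trends removed (open squares). Spry2 and Dusp4 in EpiLCs lie to the right of 0 in both versions, and Fgfr1 in ESCs moves from -0.091 to -0.0019.

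Within EpiLCs, the highest and lowest values of the 10 genes fell in a few libraries, and the same count was not made over all genes. The second exposed library was the lowest of the 6 for 6 of the 10 genes, the second vehicle library was the highest for 5 and the first exposed library for the other 5. The 4 genes not lowest in the second exposed library were lowest in the first vehicle library. Dusp6, Spry4, Spred1, Etv5, Fgfr2 and Fgf4 were each high in the second vehicle library and low in the second exposed library. This is the mirrored pattern described above for all genes, so the high and the low value are not separate observations. In ESCs no library was the highest or the lowest for more than 3 genes.

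**Figure D4:**
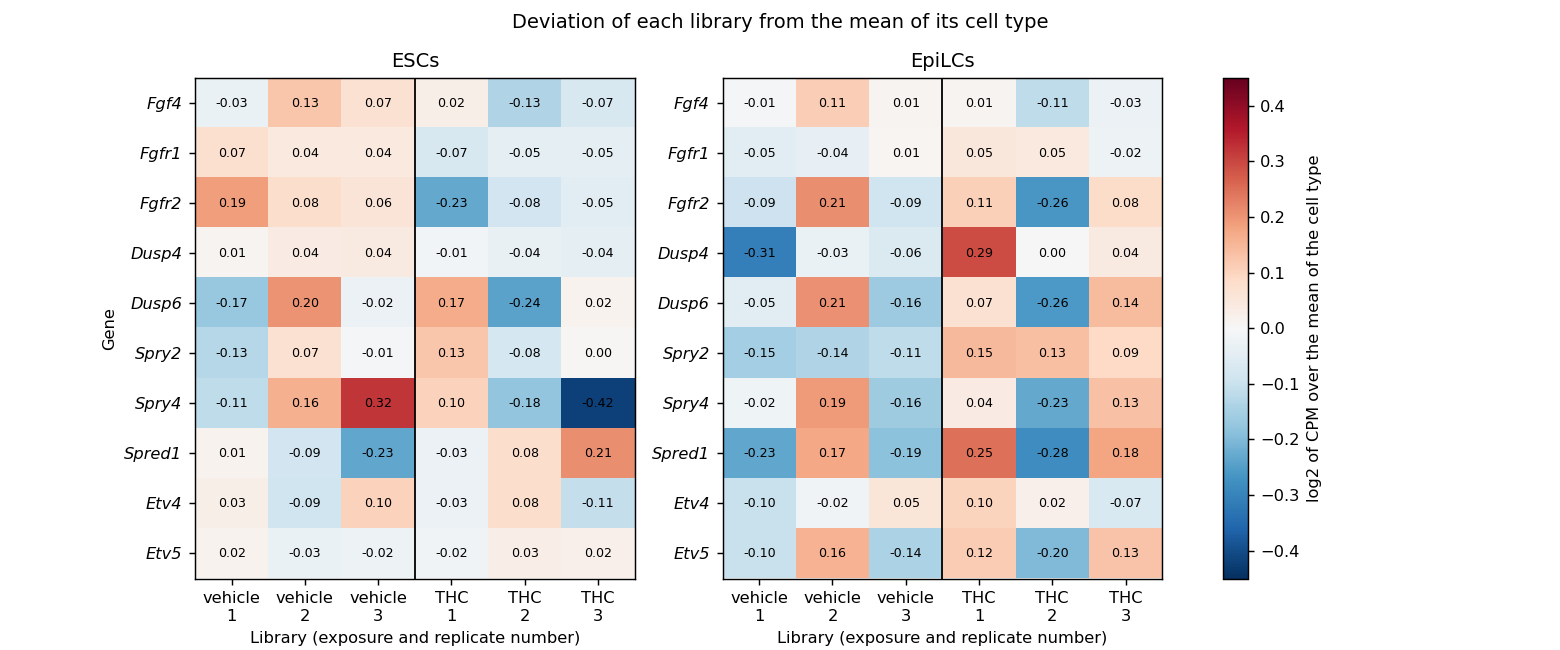
Log2 deviation of each library (x axis, exposure and replicate number) from the mean of its cell type for the 10 genes (y axis), in each cell type; red is above the mean and blue below, with the value in each cell. Same-numbered vehicle and Δ9-THC libraries carry opposite signs, as in the second EpiLC pair, where Dusp6 is at 0.21 with vehicle and -0.26 with Δ9-THC.

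An interaction over the 12 libraries tested whether the Δ9-THC effect differed between ESCs and EpiLCs. With edgeR, 0 of the 10 genes passed, where 4 of 12410 genes (0.0322%) did. At an unadjusted p under 0.05, 1703 genes (13.7%) passed, 2 of the 10 genes among them, and DESeq2 called 133 genes (1.07%) and 0 of the 10. The effect on Spry2 was higher in EpiLCs than in ESCs by 0.22 (SE 0.092, edgeR adjusted p = 0.324), that on Dusp4 by 0.30 (SE 0.16, edgeR adjusted p = 0.419) and that on Fgfr1 by 0.16 (SE 0.063, edgeR adjusted p = 0.307). With the trends removed the difference for Fgfr1 was 0.031.

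Among the other genes of the pathway, 4 of 70 passed as higher with Δ9-THC in ESCs and 2 as lower, and 0 of 74 passed in EpiLCs, against 3.37% of all genes higher and 3.55% lower in ESCs and 0% in EpiLCs. The higher genes included the Ras-GAP genes Rasa2 (log2(fold-change) 0.21, edgeR adjusted p = 0.0461) and Rasal2 (0.18, 0.0493), and Cbl, a ubiquitin ligase of receptors (0.18, 0.0402). The lower genes were Map2k2, which encodes a MEK kinase (-0.21, 0.0399), and Rps6ka2, which encodes an ERK-activated kinase (-0.22, 0.0368). The EpiLC markers Pou3f1 (-0.96, 0.0265) and Sox3 (-0.40, 0.0498) were lower in exposed ESCs, whereas of all 7 measured 3 had a value above 0, Otx2 was higher without overlap, and the median was -0.042 (0.074 with GC and length trends removed). None of these named genes passed with the GC and length trends removed, and leaving out any single ESC library left 0 or 1 called gene in the whole table. In the interaction test Zfp36, an ERK-induced RNA-binding protein that destabilizes mRNA, passed at -0.67 (edgeR adjusted p = 0.0429), and no gene of the table passed when any single library was left out.

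The genes most like each of the 10 over the 12 libraries, by Pearson r of log2 CPM, were picked from all genes with at least 10 counts on average. They were Dusp27 for Fgf4 (0.999), Sord for Fgfr1 (0.997), Spata13 for Fgfr2 (0.998), Mmp2 for Dusp4 (0.998), Lamb1 for Dusp6 (0.998), Gatad2b for Spry2 (0.988), Snap47 for Spry4 (0.999), Cdon for Spred1 (0.999), Nhs for Etv4 (0.997) and Bub1b for Etv5 (0.996). The next were Pi4k2a for Fgf4, Cacng6 for Fgfr1, Dpysl5 for Fgfr2, B3gnt7 for Dusp4, Chst15 for Dusp6, Fam107b for Spry2, Tmem30b for Spry4, Qser1 for Spred1 and Cand1 for Etv5. These r values describe points that share a cell type and a library, and the difference between ESCs and EpiLCs makes up most of the variation for each gene.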

How the data were processed

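RNA-seq was analysed in 12 libraries, 3 in each of 4 groups set by the labels. The authors aligned reads with STAR, kept unique reads, ran HTSeq (union mode, strand ignored) to count exonic reads, removed genes with low counts and applied ComBat-seq. The deposited values are these adjusted counts, whole numbers not scaled for library size, in a table for each cell type. The batches given to ComBat-seq, and the libraries made with each of 2 kits, are not given in the sources used here, and the genome is named both as mm10 and as GRCm39. 0 columns were left unused. PGCLC libraries were not analysed here.

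Exposures were compared within each table with edgeR 4.0.16 (quasi-likelihood test, TMM) under R 4.3.3, for genes summing to over 10 counts, with Benjamini-Hochberg adjustment over all genes and a threshold of 0.05. Standard errors and 95% intervals are those implied by the p-value and its degrees of freedom. The interaction was fitted over 4 groups and the genes in both tables. Levels are TMM-scaled CPM on a joint scale, except summed marker levels and that of Fgf5. Those and the fold changes come from the table of the cell type. DESeq2 1.42.0, RLE normalization, other filters, GC and length offsets (natural splines with 5 degrees of freedom), the replicate number as a block, a fit of 12 libraries and each library left out were alternatives. The counting error of a level is the Poisson SD of its mean count. The labels call the libraries biological replicates, but the p-values measure only the spread between them that was left after the batch adjustment. As same-numbered libraries mirrored each other and some SDs were below the counting error, the p-values may be too small. Standard errors and intervals share this limit.

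The 10 genes and all gene lists were chosen with earlier results of these data known. Named genes are the 10, listed genes called in a test of Δ9-THC, up to 3 genes of each pathway list with the largest ratio between the cell types, the listed markers, and the 2 genes most like each of the 10. Some genes that this rule picks are not reported here. Positions, exon length and GC content came from GENCODE M21 (release 21) on GRCm38, matched for 13083 and 13696 genes, and were not used for counting. The fits were tested on simulated counts drawn independently for each library. Those counts lack the mirrored deviations of these libraries, so the simulation could not show how the tests behave with them. Tables were made with Python 3.11.15 and pandas 2.3.3, and plots with matplotlib 3.10.9.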

Additional observations from a re-analysis of the deposited data

How the results depend on the processing

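None of the 10 genes was called in any comparison of exposures under any alternative run. Their separation between ESCs and EpiLCs, 7 higher and 3 lower, has no overlap over all 12 libraries. Any subset of these libraries must therefore separate as well, so leaving libraries out could not test it. The count of called genes over the whole tables moved. In ESCs it was 906, and it was 5 with the replicate block, 0 with GC and length offsets, 1 with the replicate block and these offsets, 31 in a fit of all 12 libraries, and 0 to 1 without each library in turn. In EpiLCs it was 0, and it was 87 with DESeq2 and 411 in the fit of all 12 libraries, in which Spry2 had an adjusted p of 0.0542. Over the alternatives without a left-out library the adjusted p of Spry2 reached 0.999 with the replicate block, and it was 0.339 to 0.452 without each library in turn. For the interaction the count was 4, and it was 133 with DESeq2, 0 with the replicate block, 20 with the offsets, and 0 without each library in turn. The replicate block was an alternative because the labels state no pairing. The deviations themselves did follow the numbers: between vehicle and Δ9-THC libraries of different numbers, r was 0.223 to 0.695. Same-numbered libraries deviated in opposite directions, so the libraries of a cell type are not independent, although the test without the block takes them so.

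Fold changes near 0 changed sign. With the offsets, Dusp4 in ESCs came to 0.038, Spry2 to -0.020 and Etv4 to 0.14, and with the replicate block and the offsets to 0.038, -0.020 and 0.14. Dusp6 in EpiLCs came to 0.0054 with the offsets and to 0.0039 with both. Without each library in turn, ESC values ranged from -0.10 to 0.11 for Dusp6, from -0.00021 to 0.10 for Spry2 and from -0.066 to 0.027 for Etv4. EpiLC values ranged from -0.11 to 0.080 for Fgfr2, from -0.099 to 0.10 for Dusp6, from -0.11 to 0.077 for Spry4, from -0.014 to 0.085 for Etv4 and from -0.016 to 0.15 for Etv5. Differences between the cell types ranged from -0.0028 to 0.078 for Fgf4, from -0.099 to 0.12 for Dusp6, from -0.15 to 0.094 for Spred1 and from -0.034 to 0.12 for Etv5. The cause of these changes was not tested. Counting error exceeded the SD between libraries for Fgfr1, Fgfr2 and Dusp4 in ESCs and for Spry2 in EpiLCs, and was below it for the other genes and groups.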
